A study of Mus musculus with 12 samples.

Results

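The response to lipopolysaccharide (LPS, a bacterial cell wall component) was compared between mouse bone marrow-derived macrophages that had first been exposed to cyclodextrin and macrophages given PBS, a buffered salt solution. The members were the 3 arrays labelled as cyclodextrin before LPS and the 3 labelled as PBS before LPS, 6 of the 12 arrays of the series. Macrophages had been grown from bone marrow of C57BL/6 mice aged 9 to 16 weeks, for 8 to 9 days in 20% L929-conditioned medium. Cyclodextrin was left on the cells for 4 h at 4%, and after a wash all 6 samples received LPS at 10 ng/ml for 6 h. The other 6 arrays were 3 of PBS cells without LPS and 3 of cells given HDL (written nHDL in the labels, the n not being spelled out) at 300 ug/ml for 24 h before LPS. The labels give no contact time for PBS, so the compound, its contact time and the handling cannot be told apart. No array of cyclodextrin without LPS was among the 12, so a change already present before LPS and a changed response to LPS cannot be told apart either. The labels do not state whether replicates came from different mice or dishes, and every p-value here reflects the spread between these arrays and possibly no more than technical variation.

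Cyclodextrins are rings of sugar units whose hydrophobic cavity takes up cholesterol, and they strip it from the plasma membrane of living cells. Cholesterol-rich membrane domains take part in signalling by Toll-like receptor 4, through which macrophages sense LPS. The receptor switches on cytokine genes by way of NF-kB and interferon regulatory factors. Cells short of sterol normally process the SREBP factors, which raise the genes of cholesterol synthesis and uptake, while sterol surplus activates the LXR receptors and the cholesterol exporters. The comparison shows how LPS-stimulated macrophages differed after contact with a cholesterol acceptor that is not a lipoprotein.

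Signals are log2 values after background correction and quantile normalization, and a gene is represented by its brightest probe. A gene was called when its adjusted p was under 0.05 (limma, Benjamini-Hochberg over all 18364 probes that passed the detection filter). Of 9795 genes, 421 were called (4.3%), with 193 higher after cyclodextrin (1.97%) and 228 lower (2.33%), and 1812 had an unadjusted p under 0.05. Counted by probe, 729 of 18364 were called (3.97%). In 2593 genes (26.5%) the values of the 2 groups did not overlap, among them all 421 called genes. Of the called genes, 29 were at least 2-fold higher and 32 at least 2-fold lower. The median log2 difference of all genes was -0.0015, and the middle part of them, between the quartiles, lay from -0.15 to 0.15. The count of calls rested heavily on single arrays. It was 162 without PBS replicate 7, 199 without PBS replicate 8, 262 without PBS replicate 9, 261 without cyclodextrin replicate 22 and 200 without cyclodextrin replicate 24, and 711 with array weights.

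**Figure D1:**
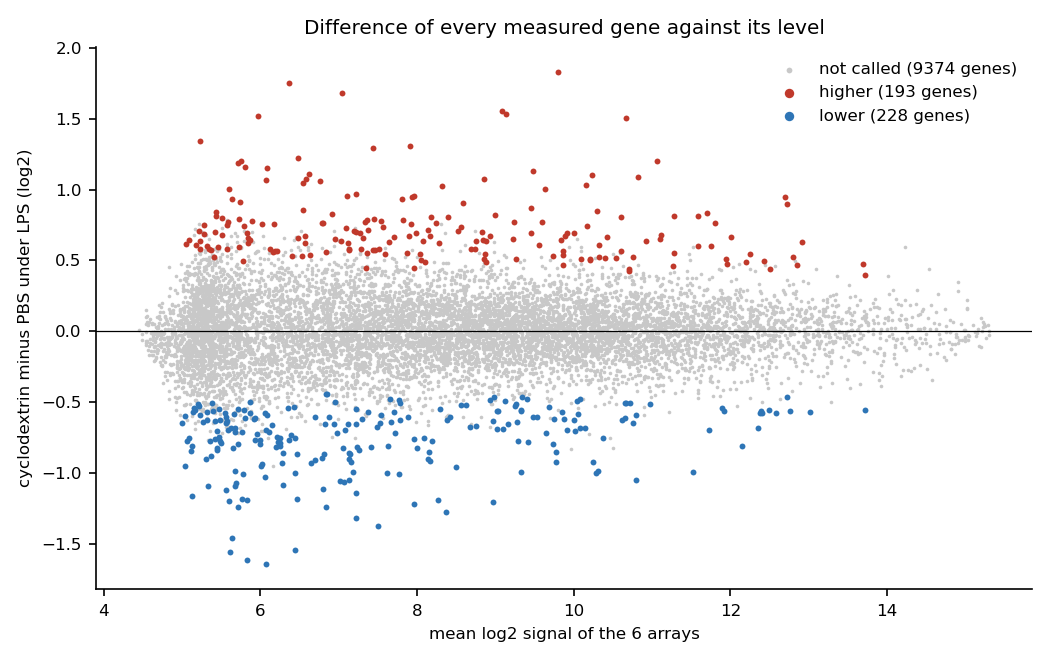
Difference between cyclodextrin and PBS under LPS (log2, vertical axis) against the mean log2 signal of the 6 arrays (horizontal axis) for all 9795 measured genes. The 193 genes called higher are red, the 228 called lower are blue and the others grey, and called genes lie at every level of signal.

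Arrays of the same group correlated at r = 0.992 to 0.996 across genes, and cyclodextrin with PBS LPS arrays at 0.987 to 0.991. Cyclodextrin arrays detected 34.3% ± 0.964 (SD, n = 3) of all probes and PBS LPS arrays 36.7% ± 0.265, every cyclodextrin array lying below every PBS array (two-sided exact permutation p = 0.1, the smallest that 3 against 3 can give). Of the 228 genes called lower, 68 had a probe that was not detected on all 3 cyclodextrin arrays. Of the 193 called higher, 35 had one that was not detected on all 3 PBS LPS arrays. Among all genes, 116 were detected on all PBS LPS and no cyclodextrin arrays (42 called lower), and 16 the other way (11 called higher). The lowest log2 signal of a detected probe was 5.36, 5.51 and 5.425 on the cyclodextrin arrays and 5.25, 5.27 and 5.28 on the PBS LPS arrays. The part of this detection limit in the calls was not tested. Among the 7879 genes detected on all 6 arrays, 158 were called higher and 160 lower (4.04%). All 8 macrophage markers on the array were detected on every array of both groups and 0 were called, among them the growth factor receptor Csf1r (0.02 ± 0.16 SE) and the surface protein Adgre1 (-0.04 ± 0.13). The others ran from C1qa (-0.42, adjusted p = 0.0845), Fcgr1 (-0.37), Itgam (-0.34) and Mpeg1 (-0.16) to Lyz2 (0.04) and Mertk (0.38). The 5 T cell markers and 2 erythroid markers on the array were undetected in both groups. Of the other marker lists, Dcn, a matrix proteoglycan of stromal cells, was the 1 gene called (at least 1.24-fold lower, adjusted p = 0.0165, detected on 3 of 3 PBS LPS and 0 of 3 cyclodextrin arrays). The log2 of the signals of that list, summed on the linear scale, was 8.50 to 8.58 on the PBS LPS arrays. It was 8.54 to 8.95 on the cyclodextrin arrays. Such a sum rests mostly on the brightest marker, here Lox (0.44, adjusted p = 0.107, not called). The collagen genes Col1a1, Col1a2 and Col3a1 of the list were undetected in both groups. On the same scale, the sum over 7 dendritic cell markers was 7.96 to 8.30 under PBS and 7.76 to 7.92 under cyclodextrin, without overlap. Values without overlap were common, in 26.5% of all genes. They also occurred for the sum over the 5 undetected T cell markers, 6.95 to 7.03 under PBS and 7.0387 to 7.0395 under cyclodextrin. Of the dendritic cell markers, Siglech (-0.37, adjusted p = 0.219) was detected on 3 of 3 PBS LPS and 0 of 3 cyclodextrin arrays. Itgax (-0.54, adjusted p = 0.128) was detected on 3 and 2. Neither was called, and Flt3, Xcr1 and Ccr7 were undetected in both groups. The sum over 4 megakaryocyte markers was also lower without overlap, 12.88 to 13.15 against 12.54 to 12.65, and rested on Pf4 (-0.42, adjusted p = 0.111), the other 3 being undetected. The part of these markers in the results was not tested. In RNA from whole cultures, fewer cells of a type and less RNA per cell cannot be told apart.

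Il6, the neutrophil-attracting chemokines Cxcl1 and Cxcl2 and the TNF family ligand Tnfsf15 were among the 20 called genes raised most after cyclodextrin, while most other cytokines and chemokines listed were not called. Il6, the cytokine that drives fever and the acute phase, had log2 signals of 9.80, 10.00 and 9.93 on the PBS LPS arrays and 11.39, 11.49 and 11.36 on the cyclodextrin arrays. The cyclodextrin values lay close together and far above the PBS values, and Il6 was 2.84-fold higher (log2 difference 1.51 ± 0.18 SE, adjusted p = 0.000488). Cxcl1, a ligand of the neutrophil receptor CXCR2, had values of 8.13, 8.65 and 8.16 against 10.01, 10.35 and 9.24. The groups did not overlap, although cyclodextrin replicate 24 was lower than the other 2, and the difference was 1.56 ± 0.28 (adjusted p = 0.00809). Its close relative Cxcl2 went from 10.44, 10.58 and 10.36 to 11.83, 11.82 and 11.32, a difference of 1.20 ± 0.23 (adjusted p = 0.0111), again with replicate 24 the lowest of its group. Tnfsf15, a TNF family ligand that costimulates T cells, rose from 6.28, 6.16 and 6.16 to 8.01, 7.96 and 7.67 (1.68 ± 0.14, adjusted p = 3.68e-05), and its groups lay far apart.

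**Figure D2:**
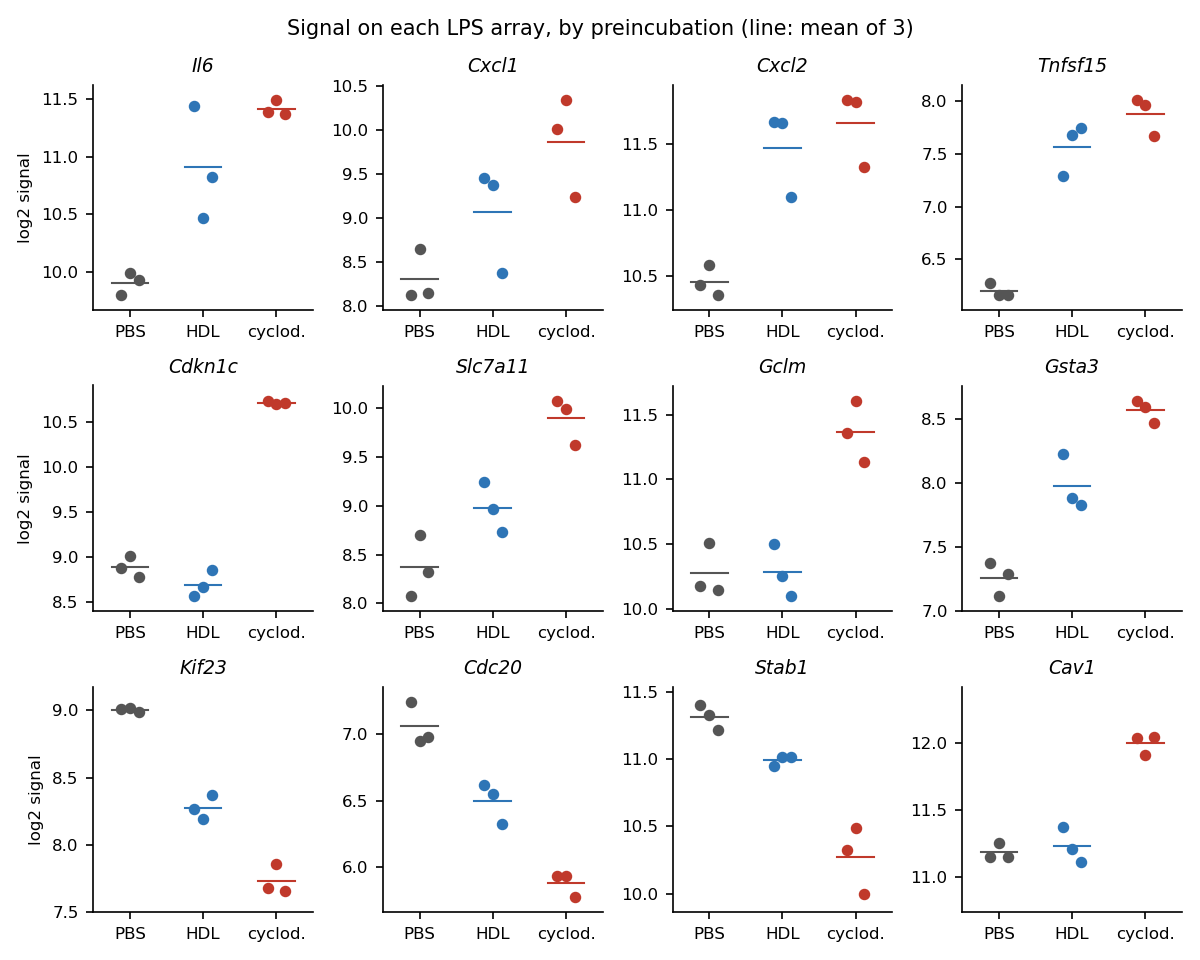
Log2 signal (vertical axis, a different range in each panel) of 12 genes on the 9 LPS arrays, by preincubation with PBS (grey), HDL (blue) or cyclodextrin (red). Each point is 1 array and each line the mean of 3. The 12 genes were picked among the 421 called genes, none of which overlap between cyclodextrin and PBS. The gap between these points in every panel follows from that choice.

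Families of secreted proteins did not move as wholes. Here and below, counts of called list members stand beside 1.97% higher and 2.33% lower among all genes. Of the 5 measured cytokines of the IL-6 and IL-12 families, 3 were higher and 0 lower, with a median of 0.77 against -0.0015 for all genes. Besides Il6 these were Il12a, a subunit of interleukin-12, at least 2.72-fold higher (its probe detected on 1 of 3 PBS LPS arrays and on all 3 cyclodextrin arrays), and Il27 (0.77 ± 0.12, adjusted p = 0.00376). The other 2 members, Osm (0.54 ± 0.15, adjusted p = 0.0559) and Ebi3 (-0.46 ± 0.12, adjusted p = 0.0511), fell just outside the threshold, in opposite directions, and each was called in 9 of 23 alternative settings. Of 8 CXC and CX3C chemokines, 4 were higher and 0 lower, with a median of 0.44: Cxcl1, Cxcl2, Cxcl14 (1.22 ± 0.14, adjusted p = 0.000308, its other probe at 0.52 without a call) and Cxcl9 (0.83 ± 0.21, adjusted p = 0.0384). The other 4, Cxcl10, Cxcl16, Cx3cl1 and Cxcl11, lay at 0.05, -0.04, -0.22 and -0.26. Of 12 CC chemokines, which attract monocytes and lymphocytes, 0 were called, with a median of -0.13 and Ccl2 (0.08), Ccl3 (-0.11), Ccl4 (0.03), Ccl5 (-0.16) and Ccl7 (0.01) near 0. The remaining CC chemokines were Ccl6 (-0.10), Ccl8 (-0.52), Ccl9 (-0.05), Ccl12 (-0.25), Ccl17 (-0.60), Ccl24 (-0.76) and Ccl25 (-0.16).

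Among 10 TNF family ligands, Tnfsf15 and Tnfsf9, a costimulatory ligand (0.82 ± 0.18, adjusted p = 0.0210), were higher and 0 were lower, with a median of 0.11. The members without a call besides Tnf were Tnfsf13b (0.25), Lta (0.12), Tnfsf8 (0.09), Tnfsf10 (0.00), Tnfsf14 (-0.04), Tnfsf4 (-0.12) and Tnfsf11 (-0.12). Tnf itself had log2 signals of 13.998, 13.907 and 13.893 under PBS and 14.57, 14.52 and 14.48 under cyclodextrin. The groups did not overlap, but its difference of 0.59 ± 0.16 missed the threshold (adjusted p = 0.0564), while it was called in 12 of 23 alternative settings, such as 1 probe per gene (adjusted p = 0.0467). Of 13 genes of the IL-1 family and the inflammasome, the alarmin gene Il33 was lower (7.74, 7.57 and 7.55 against 6.65, 6.37 and 7.08, a difference of -0.92 ± 0.16, adjusted p = 0.00589). Il1a, the membrane-bound interleukin-1, was higher (0.52 ± 0.13, adjusted p = 0.0405), and Il1b was at 0.29 ± 0.15 (adjusted p = 0.308). Hbegf, an EGF receptor ligand (1.03 ± 0.24, adjusted p = 0.0323), Csf1, the macrophage growth factor (0.51 ± 0.13, 0.0359), and Edn1, endothelin-1 (0.47 ± 0.12, 0.0490), were higher among 12 growth factors. Pdgfa, a growth factor for connective tissue cells, was lower (10.12, 10.25 and 10.23 against 9.20, 9.31 and 9.55, a difference of -0.85 ± 0.13, adjusted p = 0.00217). Not called in that list were Inhba (0.53), Igf1 (0.10), Csf3 (0.09), Hgf (0.03), Pdgfb (-0.04), Vegfa (-0.13), Tgfb1 (-0.19) and Vegfc (-0.49). Il6, Cxcl1, Cxcl2, Cxcl14, Tnfsf15, Il12a, Il27, Il33 and Pdgfa kept their call when any single array was left out, while Cxcl9, Tnfsf9, Il1a, Hbegf, Csf1 and Edn1 each lost it in 5 to 10 of the 12 omissions, with adjusted p up to 0.177 (Edn1).

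Upstream of these cytokines few genes passed. Of 21 LPS receptors and adaptors 0 were called, with a median of 0.10, among them the receptor Tlr4 (-0.03 ± 0.15) and its coreceptor Cd14 (-0.07 ± 0.14). Of 20 NF-kB subunits and inhibitors, 2 were higher and 0 lower, with a median of 0.23. Rel, the c-Rel subunit, had values of 8.13, 8.17 and 8.22 under PBS and 8.88, 8.90 and 8.86 under cyclodextrin, without overlap (0.71 ± 0.10, adjusted p = 0.00159). Tnfaip2, an NF-kB target, was higher by 0.48 ± 0.12 (adjusted p = 0.0391), and its call was lost in 7 of 12 omissions of 1 array. Of 6 genes of the protein kinase C family 0 were called, with Prkcb at -0.10 ± 0.12, Prkcd at -0.02 ± 0.14, Prkca at 0.00, Prkd2 at -0.17, Prkd3 at 0.21 and Prkch at -0.29.

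The interferon-beta gene rose, while none of the listed antiviral genes it induces was called. Ifnb1 had values of 7.74, 7.59 and 8.01 under PBS and 8.49, 8.35 and 8.92 under cyclodextrin. The groups did not overlap and the difference was 0.81 ± 0.16 (adjusted p = 0.0115), but the call was lost without PBS replicate 7 or 8 (adjusted p up to 0.0592). Irf1, an interferon-induced transcription factor, was at 0.44 ± 0.12 by its brightest probe (adjusted p = 0.0629), while 3 of its other 4 probes were called higher (0.58, 0.56 and 0.53). Of 22 antiviral genes of the OAS, IFIT and Mx families 0 were called, with a median of 0.01, and of 12 guanylate-binding and immunity-related GTPases 0 were called, with a median of 0.14. These GTPases, which attack vacuoles that hold microbes, ran from Gbp3, Ifi47, Irgm1 and Gbp11 (0.19 each) through Tgtp1 (0.17), Igtp (0.16), Irgm2 (0.12), Gbp10 and Gbp2 (0.07 each) and Gvin1 (-0.02) to Gbp5 (-0.13) and Gbp7 (-0.33). The chemokine Cxcl10, an interferon target, was at 0.05 ± 0.28, with PBS values of 15.18 to 15.35 near the top of the scale. Nos2, the inducible nitric oxide synthase (-0.25 ± 0.18, adjusted p = 0.507), and Il10, the anti-inflammatory cytokine (-0.31 ± 0.16, adjusted p = 0.329), did not pass. Slc7a2, a transporter of the arginine that nitric oxide synthase uses, was higher (10.17, 10.17 and 10.28 against 11.15, 10.93 and 10.95, a difference of 0.81 ± 0.12, adjusted p = 0.00188). It was the 1 called gene of 10 genes of nitric oxide, arginine and itaconate, which had a median of -0.08. Besides Nos2 the others were Ass1 (0.27), Gch1 (-0.01), Pts (-0.01), Acod1 (-0.06), Asl (-0.10), Qdpr (-0.12), Odc1 (-0.41) and Arg1 (-0.46).

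Among transcription factors and feedback genes, Klf4, a regulator of macrophage polarization, had values of 6.80, 6.71 and 6.85 under PBS and 8.02, 7.85 and 8.38 under cyclodextrin (1.29 ± 0.19, adjusted p = 0.00169). Egr2, a growth-factor-induced factor, was higher as well (0.90 ± 0.15, adjusted p = 0.00372), as was Dusp4, a phosphatase of MAP kinases (0.87 ± 0.19, 0.0223). Batf, a partner of interferon regulatory factors, was lower (-0.57 ± 0.12, adjusted p = 0.0155). Id1, an inhibitor of helix-loop-helix factors that LPS raises in these cells (3.53 on the log2 scale in PBS cells), was lower by -1.20 ± 0.17 (adjusted p = 0.00176). Il4ra, the interleukin-4 receptor chain, fell from 7.54, 7.35 and 7.48 to 6.43, 6.07 and 6.14 (-1.24 ± 0.21, adjusted p = 0.00547). Atf3 was at 0.21 ± 0.16 and did not pass. Dusp4 lost its call in 5 of 12 omissions of 1 array, and Batf lost it without PBS replicate 7 or cyclodextrin replicate 22.

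A few genes of the antioxidant response, which the factor NRF2 controls, were among the most raised, while most of the list did not pass. Slc7a11, the cystine importer that feeds glutathione synthesis, had values of 8.07, 8.70 and 8.33 under PBS and 10.08, 10.00 and 9.62 under cyclodextrin. The groups were far apart and the difference was 1.53 ± 0.17 (adjusted p = 0.000329), with 2 of its 3 other probes also called higher (1.87 and 1.62) and the last at 0.80. Gclm, the regulatory subunit of the rate-limiting enzyme of glutathione synthesis, had values of 10.17, 10.51 and 10.15 against 11.36, 11.61 and 11.13 (1.09 ± 0.15, adjusted p = 0.00159). Gsta3, a glutathione transferase, had values of 7.37, 7.12 and 7.29 against 8.64, 8.59 and 8.47 (1.31 ± 0.13, adjusted p = 0.000283). All 3 genes kept their call in every omission of 1 array.

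Of 25 measured NRF2 genes, 5 were higher and 1 lower, against 1.97% and 2.33% of all genes, with a median of 0.00. The other called members were Srxn1, which repairs oxidized peroxiredoxins (0.56 ± 0.11, adjusted p = 0.0146), Gstm1, another glutathione transferase (0.46 ± 0.10, 0.0178, its other probe at -0.22 without a call), and Osgin1, a growth inhibitor induced by oxidative stress, at least 1.67-fold lower (its probe detected on 0 of 3 cyclodextrin arrays). Without PBS replicate 7 the count of higher members was 3, and Osgin1 lost its call. Nfe2l2, which encodes NRF2, was at 0.24 ± 0.13 (adjusted p = 0.369). Hmox1, the heme-degrading enzyme, had values of 12.84, 12.78 and 12.85 under PBS and 11.22, 13.04 and 13.12 under cyclodextrin. Cyclodextrin replicate 22 lay below every PBS array and the other 2 above, so no direction can be given (-0.36 ± 0.45, adjusted p = 0.735).

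The promoters of Gclm and Gsta3 are shown because both genes rose and both hold the letters TGACNNNGC, the core of the antioxidant response element that NRF2 binds. They are 300-base RefSeq windows of build GRCm38.p6, from 250 bases before to 50 after the start of the gene, read 5′ to 3′ on the gene's strand, with the match in capitals (in Gclm it lies on the opposite strand). The Gclm window is chr3:122245307-122245606 (plus strand), with the match starting at position -134 from the start site, and the Gsta3 window is chr1:21240335-21240634 (plus strand), with the match at -121.
Gclm: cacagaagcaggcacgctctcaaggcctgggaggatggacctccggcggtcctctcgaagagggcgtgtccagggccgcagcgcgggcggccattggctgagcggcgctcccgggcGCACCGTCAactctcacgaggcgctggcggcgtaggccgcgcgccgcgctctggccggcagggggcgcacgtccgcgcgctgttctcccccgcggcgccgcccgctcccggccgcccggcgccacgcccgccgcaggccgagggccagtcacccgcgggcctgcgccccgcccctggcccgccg
Gsta3: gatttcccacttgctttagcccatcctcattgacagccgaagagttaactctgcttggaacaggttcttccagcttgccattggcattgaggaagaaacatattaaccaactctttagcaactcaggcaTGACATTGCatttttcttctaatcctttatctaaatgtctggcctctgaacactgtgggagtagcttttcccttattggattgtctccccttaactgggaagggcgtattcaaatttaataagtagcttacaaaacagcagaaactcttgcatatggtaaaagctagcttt
Searched on both strands, the motif stood in the windows of 3 of the 5 genes called higher (Gsta3, Gclm and Srxn1), of 7 of the 23 measured NRF2 genes with a window, and of 13.99% of the 27025 genes with windows. It was not found in the windows of Slc7a11 and Gstm1. A match is a description of these letters and not evidence of binding.

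Other stress programs showed single genes, with 4.3% of all genes called. Ppp1r15a, the phosphatase subunit that restores protein synthesis after stress, had values of 9.68, 9.70 and 9.67 against 10.84, 10.86 and 10.67 (1.10 ± 0.11, adjusted p = 0.000283), the groups being far apart. Of 19 genes of ER folding it was the 1 called higher, and Sdf2l1 (-0.60 ± 0.15) and Herpud1 (-0.48 ± 0.13), an ER chaperone partner and an ER degradation factor, were lower with adjusted p of 0.0423 and 0.0497. Of 22 ATF4 and amino acid genes, Slc3a2, the heavy chain that pairs with the cystine transporter, was the 1 called (0.72 ± 0.16, adjusted p = 0.0239), and Ddit3 was at -0.16 ± 0.14. Of 17 heat shock genes, Hspa1a, an inducible chaperone, was the 1 called (0.58 ± 0.14, adjusted p = 0.0325). Sdf2l1, Herpud1, Slc3a2 and Hspa1a each lost the call in at least 5 of 12 omissions of 1 array.

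Of the 50 gene lists, the 2 of mitosis had the largest numbers of genes lower after cyclodextrin. Kinesins are motor proteins that walk on microtubules, and those listed build the spindle, align chromosomes or split the daughter cells. Of 11 measured mitotic kinesins, 8 were lower and 0 higher, against 2.33% of all genes called lower, with a median log2 difference of -1.14. In PBS cells, LPS itself lowered all 11, against 37.6% of all genes. It also lowered 24 of 26 other mitosis genes and 29 of 34 genes of DNA replication. That comparison shares the PBS LPS arrays, so its counts are only set side by side. Kif23, the motor of the central spindle, had values of 9.01, 9.02 and 8.99 under PBS and 7.68, 7.86 and 7.65 under cyclodextrin. The 2 groups were tight and far apart (-1.27 ± 0.14, adjusted p = 0.000292). A further probe of Kif23 was also lower (-1.23, called) and its remaining probes, at 0.19 and -0.10, were not called.

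Kif22, which moves chromosome arms, had values of 7.89, 7.70 and 7.79 against 6.71, 6.73 and 6.53 (-1.14 ± 0.14, adjusted p = 0.000494). Several kinesins fell to the background, so their folds are lower bounds. Kif2c, which depolymerizes microtubules at kinetochores, was at least 2.79-fold lower (its probe detected on 2 of 3 cyclodextrin arrays). Kifc1, a minus-end motor, was at least 2.31-fold lower, Kif11, which pushes spindle poles apart, at least 1.94-fold, and Kif18b at least 1.21-fold, all 3 detected on every PBS LPS array and on 0 cyclodextrin arrays. The remaining called motors were Kif20b, at least 1.28-fold lower and detected on 0 of 3 cyclodextrin arrays, and Kif4 (-0.57 ± 0.15, adjusted p = 0.0432), which lost the call in 6 and 8 of 12 omissions of 1 array. Those not called were Kif15 (-0.75 ± 0.22), Kif24 (-0.12 ± 0.11) and Kif18a (-0.01 ± 0.13). Other probes of Kifc1 (-0.12) and Kif18b (-0.44 and 0.12) were not called. Leaving out 1 array at a time gave 6 to 9 called kinesins, with 6 without PBS replicate 3 of the cells without LPS.

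**Figure D3:**
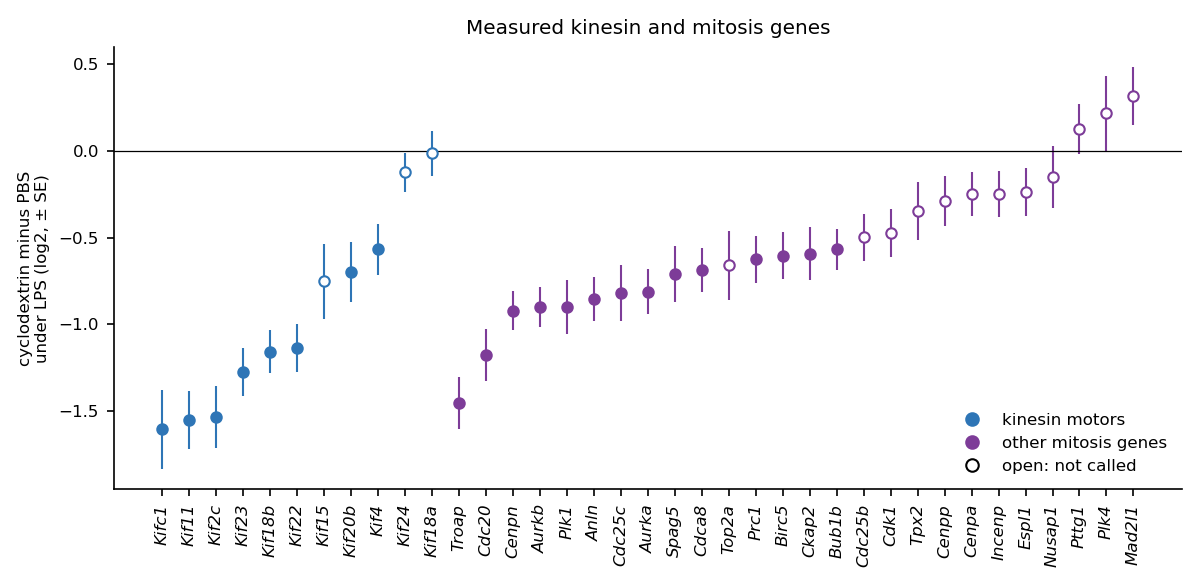
Log2 difference between cyclodextrin and PBS under LPS (vertical axis, with SE) for the 11 measured kinesins (blue) and 26 other mitosis genes (purple). Filled points were called lower, 8 kinesins and 14 other genes, and open points were not called.

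The same direction held for other genes of mitosis, of which 14 of 26 were lower and 0 higher, with a median of -0.60. Cdc20, the activator of the anaphase-promoting complex, had values of 7.24, 6.95 and 6.98 against 5.93, 5.93 and 5.77, without overlap (-1.18 ± 0.15, adjusted p = 0.000755). Of its 3 other probes 1 was called lower (-0.75) and those at -0.63 and -0.22 were not. Aurkb, the kinase of the chromosomal passenger complex, went from 7.65, 7.61 and 7.47 to 6.56, 6.85 and 6.62 (-0.90 ± 0.11, adjusted p = 0.000691), and Plk1, the polo kinase, from 8.80, 8.61 and 8.36 to 7.48, 7.93 and 7.65 (-0.90 ± 0.16, 0.00586). Cenpn (-0.92 ± 0.11) encodes a kinetochore protein, and Anln (-0.85 ± 0.13) encodes anillin of the cleavage furrow. Outside the list, the kinetochore gene Cenph was at least 1.99-fold lower and detected on 0 of 3 cyclodextrin arrays. Troap, a spindle-associated gene, had 1 probe that was at least 1.92-fold lower and a second one at 0.03. Members without a call included the sister chromatid gene Pttg1 (0.13 ± 0.14), Cdk1 (-0.47 ± 0.14) and Top2a (-0.66 ± 0.20), and the highest was Mad2l1 (0.32 ± 0.17), all 4 chosen after their values were seen. Without PBS replicate 7 the count of lower members was 8.

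The promoters of Kif23, Kif11 and Cdc20 are shown because these genes fell together and hold the letters TTTGAA near the start site, a sequence known in cell cycle promoters as the cell cycle homology region. The windows, again RefSeq GRCm38.p6, are chr9:61946750-61947049 (minus strand) for Kif23, with the match in capitals at position 2 from the start site, chr19:37376132-37376431 (plus strand) for Kif11, with the match on the opposite strand at -19, and chr4:118437294-118437593 (minus strand) for Cdc20, with the match at -18.
Kif23: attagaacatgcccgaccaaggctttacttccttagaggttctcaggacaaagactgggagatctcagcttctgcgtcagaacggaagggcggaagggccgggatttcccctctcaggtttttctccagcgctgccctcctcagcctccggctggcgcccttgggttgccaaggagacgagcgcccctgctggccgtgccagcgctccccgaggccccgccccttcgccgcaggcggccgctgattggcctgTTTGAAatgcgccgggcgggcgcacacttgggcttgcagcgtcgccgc
Kif11: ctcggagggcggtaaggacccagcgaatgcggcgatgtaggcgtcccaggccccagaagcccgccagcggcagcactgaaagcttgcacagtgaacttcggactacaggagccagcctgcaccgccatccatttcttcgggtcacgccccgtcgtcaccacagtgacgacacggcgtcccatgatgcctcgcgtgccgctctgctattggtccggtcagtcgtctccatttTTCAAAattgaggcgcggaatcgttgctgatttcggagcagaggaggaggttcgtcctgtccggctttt
Cdc20: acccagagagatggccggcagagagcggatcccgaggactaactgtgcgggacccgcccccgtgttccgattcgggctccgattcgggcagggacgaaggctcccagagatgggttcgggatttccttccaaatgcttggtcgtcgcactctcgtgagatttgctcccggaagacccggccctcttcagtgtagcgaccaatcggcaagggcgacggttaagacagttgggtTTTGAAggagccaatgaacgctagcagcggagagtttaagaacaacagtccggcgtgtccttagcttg
Searched on both strands for TTTGAA or TTCGAA (the second reads the same on both strands), the motif stood in the windows of all 8 called kinesins, of 10 of the 11 measured kinesins, and of 21.7% of all genes with windows. Of the 14 other mitosis genes called lower, 12 had a window and 10 of these held the motif, as did 15 of the 22 measured mitosis genes with a window. These shares describe the letters in the windows and no more.

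The brake on division that stood highest was Cdkn1c, which encodes p57, an inhibitor of cyclin-dependent kinases. Its log2 signals were 8.88, 9.01 and 8.77 under PBS and 10.74, 10.71 and 10.71 under cyclodextrin. It had the largest fitted rise of all called genes, 3.56-fold (1.83 ± 0.14, adjusted p = 1.64e-05). Rgcc, a regulator of the cell cycle, was higher too (9.06, 8.95 and 8.72 against 9.91, 10.09 and 10.12, a difference of 1.13 ± 0.14, adjusted p = 0.000659). Of 22 CDK inhibitors, D cyclins and p53 targets, 2 were higher and 1 lower, with a median of -0.01. Cdkn2b was at least 1.51-fold higher (its probe detected on 0 of 3 PBS LPS and 2 of 3 cyclodextrin arrays), Ccnd3, a D cyclin, was lower (-0.48 ± 0.12, adjusted p = 0.0433), and both lost the call in 7 or more omissions. Cdkn1a, the p53 target p21, was at 0.16 ± 0.12.

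Of 34 genes of DNA replication and nucleotide synthesis, 5 were lower and 1 higher, against 2.33% and 1.97% of all genes, with a median of -0.20. Mcm7, a subunit of the replicative helicase, had values of 7.48, 7.61 and 7.70 against 6.85, 6.56 and 6.20 (-1.06 ± 0.16, adjusted p = 0.00218), while its other probe was at -0.02 without a call. Rrm1, the large subunit of ribonucleotide reductase, was lower (-0.67 ± 0.16, adjusted p = 0.0297) by both of its probes, as were Cdc45 (-0.66 ± 0.14), Lig1 (-0.64 ± 0.16) and Pole, at least 1.72-fold (its probe detected on 0 of 3 cyclodextrin arrays). Rfc3, a clamp loader subunit, was higher (0.56 ± 0.13, adjusted p = 0.0242). Without PBS replicate 7, 1 member was called lower and 0 higher.

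Genes of sterol synthesis had mostly negative differences, with few calls. By their brightest probes, all 7 measured genes of the mevalonate pathway had negative differences, with a median of -0.42, and 2 were called lower, of which Lss had another probe called the other way. Fdps, farnesyl diphosphate synthase, had values of 12.81, 12.68 and 12.80 against 12.24, 12.21 and 12.18 (-0.56 ± 0.12, adjusted p = 0.0165), with its other probe also called (-0.50). Lss, lanosterol synthase, was lower by its brightest probe (-0.70 ± 0.15, adjusted p = 0.0170) and higher by its other probe (0.54, adjusted p = 0.0387), so no direction can be given for it. The other members were Sqle (-0.43), Mvd (-0.42), Pmvk (-0.41), Mvk (-0.39) and Idi1 (-0.31). Of 9 enzymes from lanosterol to cholesterol, Sc5d was lower (-0.59 ± 0.14, adjusted p = 0.0280) and the rest, Dhcr7 (-0.65), Nsdhl (-0.40), Cyp51 (-0.40), Lbr (-0.37), Hsd17b7 (-0.18), Msmo1 (-0.15), Ebp (-0.07) and Tm7sf2 (-0.07), were not called. Without PBS replicate 7 none of the 16 enzymes was called, Fdps included (adjusted p up to 0.0711). The regulators Srebf2 (-0.01 ± 0.14) and Insig1 (0.02 ± 0.15) and the sterol transporter Stard4 (-0.26 ± 0.19) did not pass.

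Of 12 genes of SREBP regulation and sterol uptake, the 1 called was Lrp8, a lipoprotein receptor (6.32, 6.34 and 6.56 against 7.22, 7.02 and 7.28, a difference of 0.77 ± 0.12, adjusted p = 0.00385). The SREBP cleavage and retention genes Mbtps2 (0.29), Scap (0.10), Insig2 (0.10), Srebf1 (-0.25) and Mbtps1 (-0.32), and Rnf139 (-0.04), Aup1 (-0.09) and the receptor Lrp1 (-0.47), were not called. Abcg1, which exports cholesterol to HDL, was the 1 called gene of 13 LXR targets (8.32, 8.27 and 8.41 against 7.46, 7.57 and 7.71, a difference of -0.76 ± 0.18, adjusted p = 0.0317), and Apoe was at -0.04 ± 0.12. Of 15 fatty acid genes, 3 were lower and 0 higher, with a median of -0.25. Elovl6, an elongase, was at least 1.61-fold lower (its probe detected on 0 of 3 cyclodextrin arrays), the brain-type desaturase Scd2 fell by 1.11 on the log2 scale (adjusted p = 0.0191) and the desaturase Fads2 by 0.59 (0.0306). Abcg1, Scd2 and Fads2 lost the call in 6, 2 and 5 of the 12 omissions. Cers6, a ceramide synthase, was higher (0.66 ± 0.12, adjusted p = 0.00736). Cav1, which encodes caveolin-1, the cholesterol-binding coat of caveolae, had values of 11.15, 11.25 and 11.15 against 12.03, 11.91 and 12.04, without overlap (0.81 ± 0.11, adjusted p = 0.00104), and it was the 1 called gene of 8 raft and caveola genes. The other 7 were Cav2 (0.46), Anxa1 (0.03), Anxa2 (-0.09), Flot2 (-0.11), Flot1 (-0.23), Stom (-0.31) and Cavin1 (-0.35). Of 12 genes of cholesterol storage and lysosomal export 0 were called, with a median of -0.06. They ran from Cd36 (0.06), Npc2 (0.01), Npc1 (-0.02), Nceh1 (-0.04), Stard3 (-0.04), Lipa (-0.05), Msr1 (-0.07) and Osbpl1a (-0.12) to Osbp (-0.25), Plin3 (-0.29), Lipe (-0.35) and Plin2 (-0.35).

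**Figure D4:**
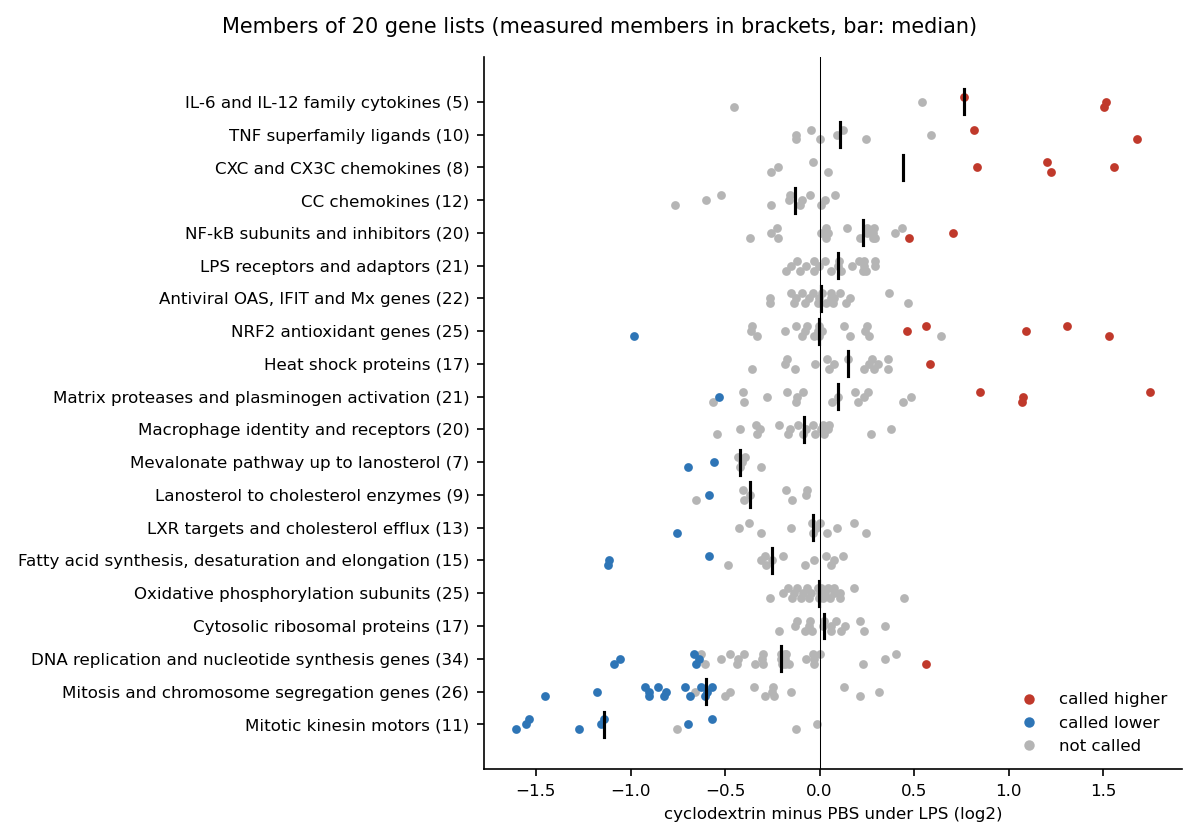
Log2 difference between cyclodextrin and PBS under LPS (horizontal axis) of every measured member of 20 gene lists, 1 point a gene, red when called higher, blue when called lower and grey otherwise, with the list median as a black bar. The kinesin and mitosis lists have their medians at -1.14 and -0.60, the IL-6 family at 0.77, and the oxidative phosphorylation and ribosomal lists near 0.

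Proteases and receptors of the cell surface showed further large differences. Mmp2, gelatinase A, was at least 3.13-fold higher (its probe detected on 2 of 3 PBS LPS and 3 of 3 cyclodextrin arrays). Adamts4, an aggrecan-cleaving protease, had values of 8.25, 8.31 and 8.41 against 9.26, 9.40 and 9.53 (1.07 ± 0.12, adjusted p = 0.000308). With the serine protease Htra4 (1.08 ± 0.17, 0.00347) and the plasminogen activator Plau (0.85 ± 0.22, 0.0464, call lost in 9 omissions), 4 of 21 matrix protease genes were higher, while Mmp25 was lower (-0.53 ± 0.13, 0.0343). The lysosomal protease Ctsl was higher (0.80 ± 0.14, adjusted p = 0.00533), as was the cathepsin Ctsk (0.56 ± 0.13, 0.0325). Stab1, a scavenger receptor, had values of 11.40, 11.33 and 11.21 against 10.32, 10.49 and 10.00 (-1.05 ± 0.13, adjusted p = 0.000717), and 1 of its 2 other probes was called lower (-0.72). Adora3, an adenosine receptor, was at least 2.71-fold lower (its probe detected on 1 of 3 cyclodextrin arrays), and the nucleotide receptor P2ry6 was lower too (-0.57 ± 0.12, adjusted p = 0.0150).

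Of 20 genes of macrophage identity, 25 oxidative phosphorylation subunits, 18 citric acid cycle enzymes, 17 ribosomal proteins and 27 proteasome subunits, 0 were called, with medians from -0.08 to 0.04. Ndrg1, a hypoxia-responsive gene, was lower (9.77, 9.83 and 9.87 against 8.80, 8.76 and 8.94, a difference of -0.99 ± 0.10, adjusted p = 0.000284), as was Pdk1, an inhibitor of pyruvate use (-0.53 ± 0.13, 0.0325), among 21 hypoxia and glycolysis genes with a median of -0.16. Lcn2, the iron-binding lipocalin (-0.69 ± 0.15, adjusted p = 0.0210), and Hp, haptoglobin (-0.84 ± 0.21, 0.0372), were the 2 lower genes of 9 acute phase genes. The others were Ptx3 (0.45), Cfb (0.21), C4b (0.19), Orm1 (0.09), Cfp (-0.02), Saa1 (-0.05) and Saa3 (-0.34). Of 8 serpins and cystatins, Cst7 (0.54 ± 0.12, adjusted p = 0.0201) and Serpina3f (0.47 ± 0.11, 0.0297) were higher and 0 were lower, and Serpinb6a (0.22), Serpinb8 (0.21), Cstb (0.10), Cst3 (-0.16), Serpinb1a (-0.32) and Serpinb2 (-0.40) were not called. Ptges, prostaglandin E synthase, was lower (9.88, 9.66 and 9.51 against 9.06, 9.03 and 8.64, a difference of -0.77 ± 0.14, adjusted p = 0.00868), losing its call without PBS replicate 7 alone (0.0501). The other 9 genes of prostaglandins and leukotrienes were Ptgs2 (0.53), Ptges3 (0.36), Pla2g7 (0.15), Tbxas1 (-0.01), Alox5ap (-0.03), Ptges2 (-0.06), Ptger2 (-0.29), Ptger4 (-0.32) and Ltc4s (-0.35), and 0 were called. Lmna, which encodes the nuclear lamins A and C, was lower by all 6 of its probes (brightest -0.46 ± 0.12, adjusted p = 0.04998, others -0.59 to -1.07).

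Further genes among the largest differences belong to none of these lists. Foxa1, a factor that opens chromatin, was at least 1.56-fold higher (its probe detected on 0 of 3 PBS LPS arrays). Neurl2, an adaptor of a ubiquitin ligase, had values of 8.23, 8.10 and 8.25 against 6.74, 6.74 and 6.98 (-1.37 ± 0.17, adjusted p = 0.000697). Irf2bp2, a corepressor, went from 8.70, 8.65 and 8.37 to 7.61, 7.38 and 7.07 (-1.22 ± 0.18, adjusted p = 0.00245). Selp, which encodes the adhesion molecule P-selectin, was at least 1.70-fold lower, and Tcf19 at least 1.90-fold, both detected on 0 of 3 cyclodextrin arrays. Lmnb1, lamin B1 (-1.31 ± 0.33, adjusted p = 0.0413), and Metrn, meteorin (-1.19 ± 0.31, 0.0496), had wide spreads and lost the call in 8 and 10 of 12 omissions.

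HDL carries cholesterol away from cells in the body, and the study also gave it to cells before LPS. HDL and cyclodextrin differ in contact time, 24 h and 4 h, as well as in kind, and both comparisons with PBS use the same 3 PBS LPS arrays, so their values are set side by side. Against PBS, HDL gave 98 called genes (1%), 42 higher (0.429%) and 56 lower (0.572%). The direct comparison of cyclodextrin with HDL arrays called 201 genes (2.05%), 91 higher under cyclodextrin (0.929%) and 110 lower (1.12%). For Il6 the differences from PBS were 1.51 and 1.00, and cyclodextrin lay 0.51 ± 0.18 above HDL without a call (adjusted p = 0.162). For Tnfsf15 they were 1.68 and 1.37, with a direct difference of 0.31 ± 0.14 (adjusted p = 0.255), and for Cxcl2 1.20 and 1.01 (0.19 ± 0.23, 0.734).

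Cdkn1c rose with cyclodextrin and was at -0.19 with HDL, and the direct difference was 2.02 ± 0.14 (adjusted p = 4.29e-06). Gclm was at 0.01 with HDL and 1.08 ± 0.15 higher with cyclodextrin than with HDL (adjusted p = 0.00324), and Gstm1 was 0.72 ± 0.10 higher (0.00231). Slc7a11 (0.92 ± 0.17, adjusted p = 0.0166) and Gsta3 (0.59 ± 0.13, 0.0406) were higher than with HDL as well. Both gaps were smaller than the rises over PBS given above, so the HDL means of both genes lay above the PBS means. Of the 25 measured NRF2 genes, HDL had 1 higher than PBS and 0 lower, with a median of -0.10. Cav1 (0.76 ± 0.11, 0.00320), Lrp8 (0.79 ± 0.12, 0.00594), Rgcc (0.97 ± 0.14, 0.00387) and Rel (0.42 ± 0.10, 0.0482) also stood above their HDL levels. Kif11 (-0.92 ± 0.17, 0.0147), Mcm7 (-0.94 ± 0.16, 0.00875), Rrm1 (-1.03 ± 0.16, 0.00546) and Stab1 (-0.72 ± 0.13, 0.0147) stood below them. For the mitotic kinesins, HDL gave fewer calls against PBS than cyclodextrin did. Of the 11, HDL had 3 lower and 0 higher, with a median of -0.53, and 2 differed in the direct comparison, Kif11 and Kif18b (-0.63 ± 0.13, 0.0221), both at background under cyclodextrin. Kif2c was at -1.03 with HDL (adjusted p = 0.0172), Kif23 at -0.73 (0.0257) and Kif22 at -0.64 (0.0494). For Kif23 the direct difference was -0.55 ± 0.14 without a call (adjusted p = 0.0594). Of the 26 other mitosis genes, HDL had 2 lower, Troap (-1.23, adjusted p = 0.00146) and Plk1 (-0.77, 0.0351), and 0 higher, with a median of -0.18. In the direct comparison 5 of the 26 were lower with cyclodextrin than with HDL, among them Top2a (-1.14 ± 0.20, adjusted p = 0.0116) and Aurka (-0.72 ± 0.13, 0.0136).

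The widest gap was in Scd1, the stearoyl-CoA desaturase. Its values were 10.10, 10.46 and 10.40 with PBS and 10.43, 10.32 and 10.43 with cyclodextrin, which overlap (0.07 ± 0.16, adjusted p = 0.865), while HDL lay 3.94 lower than PBS on the log2 scale. The direct difference was 4.02 ± 0.16 (adjusted p = 6.92e-09). Fads2, with differences from PBS of -0.59 and -1.73, was 1.14 ± 0.14 higher with cyclodextrin than with HDL (adjusted p = 0.00102), and the sterol reductase Tm7sf2, at -0.07 and -1.17, was 1.11 ± 0.14 higher (0.00102). Most listed sterol enzymes did not differ between the acceptors. Of the 7 mevalonate genes, HDL had 3 lower than PBS (median -0.69) and cyclodextrin 2 (median -0.42), and 0 differed directly. Of the 9 enzymes from lanosterol to cholesterol, each had 1 lower (medians -0.50 with HDL and -0.37 with cyclodextrin). Only Tm7sf2 differed directly among these 9. Fscn1, the actin-bundling fascin of maturing dendritic cells, went in opposite directions, at -0.71 ± 0.16 with cyclodextrin (adjusted p = 0.0261) and 0.84 with HDL (0.0282), a direct difference of -1.55 ± 0.16 (0.000377). The chemokine Ccl17 had values of 6.94, 6.99 and 6.55 with PBS, 6.37, 6.64 and 5.67 with cyclodextrin and 8.11, 8.14 and 8.24 with HDL. Its cyclodextrin and PBS values overlapped, and its direct difference from HDL was -1.94 ± 0.20 (adjusted p = 0.000299).

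**Figure D5:**
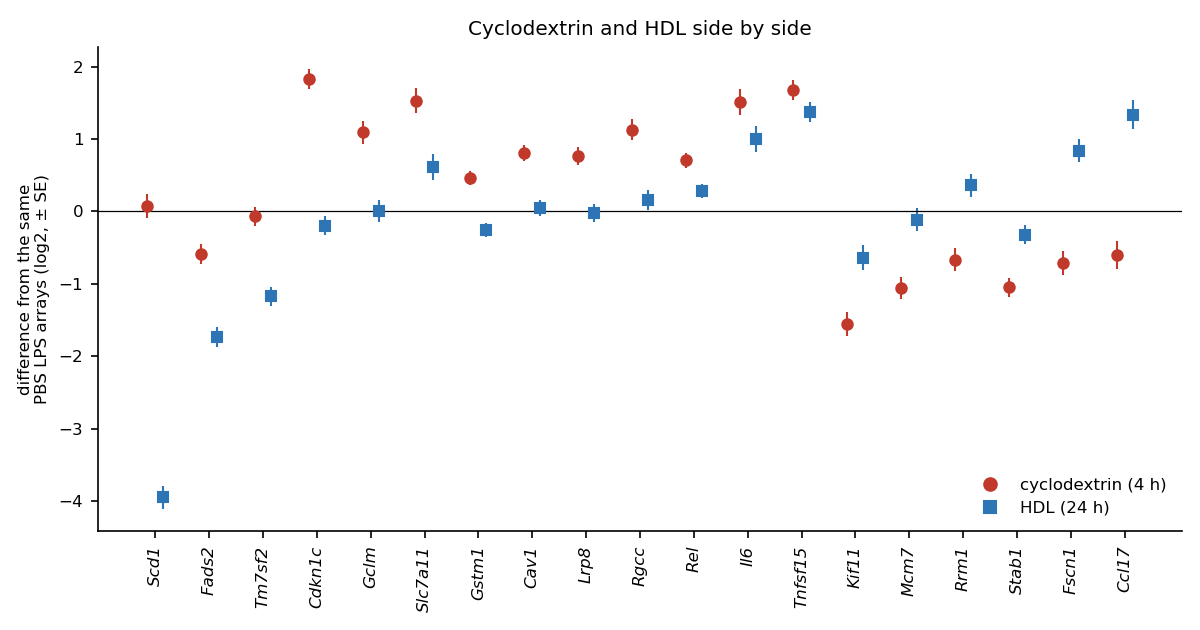
Log2 difference from the same 3 PBS LPS arrays, with SE (vertical axis), of 19 genes after cyclodextrin for 4 h (red circles) and after HDL for 24 h (blue squares). Scd1 is at 0.07 and -3.94, Cdkn1c at 1.83 and -0.19, and Fscn1 and Ccl17 lie on opposite sides of 0.

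Of the 253 genes picked by the rule given with the methods, 110 were called, and 57 of these stayed called in all 23 alternative settings. The other 53 lost the call without at least 1 array, 51 of them without PBS replicate 7, 42 without PBS replicate 8, 41 without cyclodextrin replicate 24 and 40 without cyclodextrin replicate 22. Of the genes described above, P2ry6, Ctsk, Pdk1, Lcn2, Hp, Lmna, Mmp25, Srxn1, Gstm1, Cdc45, Lig1, Rrm1, Pole, Rfc3, Sc5d, Lss, Cst7, Serpina3f and Fscn1 are among those 53. None of the 110 called genes changed direction, while 46 of the 143 without a call had both signs over the settings, Hmox1 among them (-0.69 to 0.26). Of 154 called genes with several probes, 128 had the same sign on all of them, 44 had all of them called, and Lss was the 1 gene with a probe called the other way.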

How the data were processed

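RNA from 12 macrophage samples was measured on Illumina mouse bead arrays, 1 array a sample, in 4 groups of 3, with groups taken from the labels. Replicates are numbered here by the RNA number in each label. Signals came from GenomeStudio (version not stated), per the submitters' processing notes. What the authors deposited holds a signal and a detection p-value per probe, per the file headers, and the authors' processed value, with a normalization that the sources used here do not give. The processed columns have medians of 73.68 to 73.74, on a linear scale with no centring seen.

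The decimal mark was missing from most deposited intensity values, and the planned test was run on rebuilt signals. Of 543372 values, 2.00% kept the mark, 77.1% were placed by detection p-value or number of digits, 20.4% by the curve relating both tables, and 0.521% from other arrays. When 5050 values that had kept the mark or been placed by number of digits were hidden, 0 came out in another place. Signals just above background were not among those hidden. That check does not test the placing by detection p-value or digits, and the placing rule was developed on these same data.

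Signals were background corrected from detection p-values (normexp, offset 16), quantile normalized and put on the log2 scale with limma 3.58.1 in R 4.3.3. Decimal places, motifs and plots used Python with numpy and pandas. Probes with a detection p under 0.05 on at least 3 of 12 arrays were kept, 18364 of 45281. The platform annotation given for this work names 34885 probes with 1 gene, 18 with several and 10378 with none. The gene symbols of 34807 probes were checked through the RefSeq table, and 0 changed. The 9795 genes are each shown by their brightest passing probe. A single limma fit (lmFit, eBayes, two-sided) over all 12 arrays gave every log2 difference, SE and adjusted p (Benjamini-Hochberg over 18364 probes). Where a probe was not detected on all arrays of the dimmer group, a fold is a lower bound, set, on each array of that group, against the lowest signal among detected probes or the probe's own if higher. The fit was tested on simulated data with known changes. Only 3 arrays a group limit the precision.

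Named genes are the 20 highest and 20 lowest called genes whose groups do not overlap, up to 6 called members each way of every list, all members of the 17 lists with 12 or fewer measured, and a set of inflammatory, sterol, stress and macrophage genes, 253 genes in all. Not every one is printed. Members and lists were chosen with earlier results of these data known, and lists are described by counts and medians without a test. Alternatives covered background correction, normalization, detection filter, probes per gene, arrays in the fit, variance settings, array weights and leaving out each array. The 103 called probes without a single gene name are not described.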

Additional observations from a re-analysis of the deposited data

How the results depend on the processing

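The count of 421 called genes (193 higher, 228 lower) ranged from 162 to 482 when 1 of the 12 arrays was left out, with 80 to 217 higher and 82 to 265 lower, and single omissions that leave 2 arrays in a group borrow the spread of the others. Array weights gave 711 calls, 322 higher and 389 lower. All other settings stayed within 1.5 times, from 346 without a detection filter or 347 with only the 6 arrays to 509 with a trended, robust prior. The authors' processed values and the signals without background correction gave the same counts (499 called, 245 higher and 254 lower). These settings may therefore not be separate ones among the 23. Median scaling gave 219 higher and 177 lower and moved the median of all genes to 0.04. Of 143 listed genes not called here, 16 were called in some setting, most often Tnf and Irf1 (12 and 10 of 23). None of the 110 called genes reversed, while 46 of the 143 had both signs over the settings. The share of detected probes at p under 0.01 was 28.9% after cyclodextrin and 30% after PBS, again with exact p = 0.1, and the count against HDL was 187 with only the LPS arrays and 191 with median scaling against 201. No paired analysis was run, because the labels do not state whether samples of different groups belong together. The RNA numbers in the labels differ for every sample and cannot show it. Genes near background are limited to lower bounds.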

Other observations

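Clustered histone genes, which supply new chromatin during DNA replication, were in no list and were picked after their values were seen, so their counts are a description. Of 42 measured genes with names of the H1, H2A, H2B, H3 and H4 families, 12 were called lower and 0 higher, against 2.33% lower and 1.97% higher among all genes, with a median log2 difference of -0.13. H1f10, on chromosome 6 and not called, was taken in by its name and lies outside the clusters of the others on chromosomes 13 and 3. The calls fell by family: 10 of 13 H2A genes, 2 of 8 H3 genes and 0 of 3 H1, 9 H2B and 9 H4 genes. H2ac12 had log2 signals of 11.06, 10.83 and 10.48 on the PBS LPS arrays and 9.81, 10.06 and 9.51 on the cyclodextrin arrays, a difference of -0.997 ± 0.16 SE (adjusted p = 0.00323). H2ac11 had values of 8.48, 8.42 and 7.94 against 6.99, 7.51 and 7.32 (-1.01 ± 0.19, adjusted p = 0.00881), and neither gene overlapped between groups. The H2B genes had a median of -0.14 and the H4 genes one of 0.05. With HDL the 12 genes called lower had negative differences from PBS as well, from -0.40 (H3c1) to -0.86 (H2ac21). Only H2ac21 was called there (adjusted p = 0.0494). None of the 12 differed between cyclodextrin and HDL in the direct comparison, where H2ac12 had the lowest adjusted p (-0.50 ± 0.16, 0.117). Leaving out single arrays was not examined for these genes. H2A cluster genes are near-identical copies, so their probes may report the same transcripts and the 10 calls are not 10 separate ones. The difference between families was not tested.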
